A study of Mus musculus with 16 samples.

Results

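The Notch pathway transcripts of brain endothelial cells are described here from 10 genes chosen by name and role, not by a threshold on their values, namely the receptors Notch1 and Notch4, the ligands Dll4, Jag1 and Jag2, the nuclear factor Rbpj, and the targets Hey1, Hey2, Hes1 and Nrarp. All 10 have a row among the 39057 rows of the count table (39056 mouse genes and human *APOE*), and 9 of the 10 were among the 12481 genes with enough counts to be tested. RNA came from untreated cultures of primary cortical brain endothelial cells of *APOE3*- and *APOE4*-targeted replacement mice, which carry a human allele under the mouse promoter. There were 8 cultures per genotype, 4 from males and 4 from females, each from 1 mouse aged 21 to 28 days, all selected with 8 μg/ml puromycin and grown to confluence. Cells were not sorted, so a culture can hold other cells, and it lacks blood flow, astrocytes and an intact vessel wall.

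Notch is a receptor that is cut when a ligand on a neighbouring cell pulls on it. The freed intracellular part enters the nucleus and joins Rbpj, a DNA-binding protein that otherwise holds target genes down with corepressors, and mastermind-like coactivators, and it then switches on targets of the Hes and Hey families. In growing vessels Dll4 on tip cells restrains its neighbours through Notch1, and Notch activity is known for its part in arterial identity.

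Total counts were 12717847 to 18624417 per library, no 2 libraries were identical, and the 10 genes together took 0.221% to 0.272% of the counts. Human *APOE* had 7672 to 22318 counts in each library, while mouse Apoe had 128 to 290. Endothelial markers were high, with 3624 ± 121 CPM (a count's share of its library after normalization, mean ± SD, n = 8) of Pecam1 in *APOE3* and 3646 ± 129 in *APOE4* cultures, and the astrocyte markers Gfap and Aqp4 and the microglial markers Cx3cr1 and Csf1r had at most 6 counts in any library. The 6 astrocyte markers summed to 0.603 to 4.08 CPM in *APOE3* and 1.44 to 4.27 CPM in *APOE4* cultures, the 7 microglial to 0.0704 to 0.749 and 0.0794 to 0.792, the 6 oligodendrocyte to 0.670 to 1.97 and 0.504 to 1.65, the 5 neuron to 8.51 to 12.2 and 10.6 to 14.8, and the 6 fibroblast to 13.3 to 65.3 and 10.4 to 85.2. Of these lists 1, 0, 1, 2 and 4 genes were tested and 0 were called, with 1 astrocyte, 1 oligodendrocyte, 2 neuron and 1 fibroblast gene at an unadjusted p under 0.05 in edgeR. Pericyte and smooth muscle markers summed to 191.8 to 359.9 CPM in *APOE3* and 226.4 to 344.6 CPM in *APOE4* cultures, most of it Tagln and Acta2, and of 14 such genes 8 were tested and 0 were called, with 7 of the 8 estimates above 0, a median log2 fold change of 0.30 and 2 at an unadjusted p under 0.05 in edgeR, while Rgs5, Kcnj8, Higd1b and Atp13a5 had at most 14 counts. In such bulk RNA, fewer cells of a type and less RNA per cell cannot be told apart.

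Promoters of 3 of the genes are shown because they hold short motifs of the pathway's own DNA-binding proteins: TGGGAA, the core of the sequence that Rbpj binds, and CACGTG, a sequence bound by Hes and Hey family proteins among others. Each window runs from 250 bases before to 50 bases after a RefSeq transcription start (GRCm38.p6), is printed 5′ to 3′ on the gene's strand, and has the motif in capitals on either strand (TTCCCA is TGGGAA read on the other strand). The Rbpj window lies inside the GENCODE gene model, which begins further upstream.
Rbpj, chr5:53590096-53590395, plus strand: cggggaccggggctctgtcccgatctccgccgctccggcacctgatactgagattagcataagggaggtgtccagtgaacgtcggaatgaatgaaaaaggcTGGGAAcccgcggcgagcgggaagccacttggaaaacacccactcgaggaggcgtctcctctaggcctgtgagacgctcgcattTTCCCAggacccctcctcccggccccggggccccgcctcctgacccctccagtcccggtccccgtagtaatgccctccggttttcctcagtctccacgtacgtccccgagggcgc
Hey2, chr10:30842734-30843033, minus strand: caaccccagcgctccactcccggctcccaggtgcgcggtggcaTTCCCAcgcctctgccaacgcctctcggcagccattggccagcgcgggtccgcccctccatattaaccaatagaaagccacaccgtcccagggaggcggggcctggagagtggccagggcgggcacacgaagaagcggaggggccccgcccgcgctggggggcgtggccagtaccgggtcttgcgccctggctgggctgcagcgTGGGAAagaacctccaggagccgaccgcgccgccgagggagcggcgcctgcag
Nrarp, chr2:25180508-25180807, plus strand: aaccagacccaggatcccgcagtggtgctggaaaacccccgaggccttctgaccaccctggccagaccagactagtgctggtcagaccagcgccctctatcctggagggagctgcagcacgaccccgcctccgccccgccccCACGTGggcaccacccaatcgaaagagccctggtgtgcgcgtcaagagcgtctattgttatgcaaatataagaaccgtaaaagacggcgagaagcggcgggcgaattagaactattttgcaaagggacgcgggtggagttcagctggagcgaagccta

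The table of promoters held 9 windows for 8 of the 10 genes, 2 of them for Rbpj, and none for Hey1 and Hes1. Altogether 4 motifs were searched on both strands. TGGGAA was in 3 of the 9 windows (both of Rbpj, which overlap and share a match, and Hey2) and in 25.6% of all 32851 promoters. The longer GTGGGAA, which contains TGGGAA, was in the Hey2 window alone and in 6.38% of all promoters, with both Hey2 matches being of this longer form. CACGTG was in the Nrarp window alone and in 7.15% of all promoters. CCGGAA, a core of ETS-family sites that was added after the matches of the other motifs had been seen, was in 0 of the 9 windows and in 14.9% of all promoters. In the printed windows the Rbpj matches began at -149 and -65 from the start, the Hey2 matches at -207 and -3, and the Nrarp match at -108. A match of letters is not a bound site, and no binding was measured.

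Levels of the genes were compared per length, as FPKM (CPM per kilobase of the joined exons of all annotated transcripts). Notch4, a receptor found mostly in endothelium, was the highest of the 10 at 117.0 ± 8.10 FPKM over the 16 libraries (SD), above 97.6% of the genes tested. Nrarp, a target whose product feeds back on the Notch complex, followed at 86.3 ± 5.63 FPKM, and Dll4 at 70.8 ± 8.05 FPKM. The ranges of Nrarp and Dll4 overlapped between libraries, but Nrarp was above Dll4 in each of the 16.

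Notch1 had 43.6 ± 2.83 FPKM, Jag2 30.1 ± 4.07 FPKM and Hes1 26.0 ± 6.04 FPKM. Jag2 and Hes1 were the other pair of neighbours whose ranges overlapped, with Jag2 above Hes1 in 13 of 16 libraries. Jag1 had 15.7 ± 1.24 FPKM and Hey1 7.85 ± 1.10 FPKM. Rbpj was low per length at 2.20 ± 0.173 FPKM, above 27.1% of the genes tested. Hey2, a target linked to arterial fate, was close to absent at 0.0910 ± 0.0650 FPKM, with 1 to 16 counts per library. The same order held with the length of the longest coding transcript in place of joined exons, by which Rbpj had 5.12 FPKM. Antisense genes overlap 3 of the genes, whose rows may hold reads of other genes or lack some of their own. The strand setting of the counting is not given in the sources used here. The antisense gene Gm38287, which has no row of its own, covers 79.4% of the exon bases of Nrarp. Antisense genes cover 7.5% and 2.91% of the exon bases of Notch1 and 5.56% of those of Dll4. The antisense genes of Notch1 have rows of their own, with 5 to 28 counts per library for 0610009E02Rik and 0 to 5 for Gm13568, against 6887 to 11490 for Notch1. That of Dll4, Gm14207, had 118 to 205 counts, against 2865 to 5128 for Dll4. Rbpj shared 9.84% of its 50-base stretches with its pseudogenes, whose rows had 0 to 15 counts against 358 to 529 for Rbpj.

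**Figure D1:**
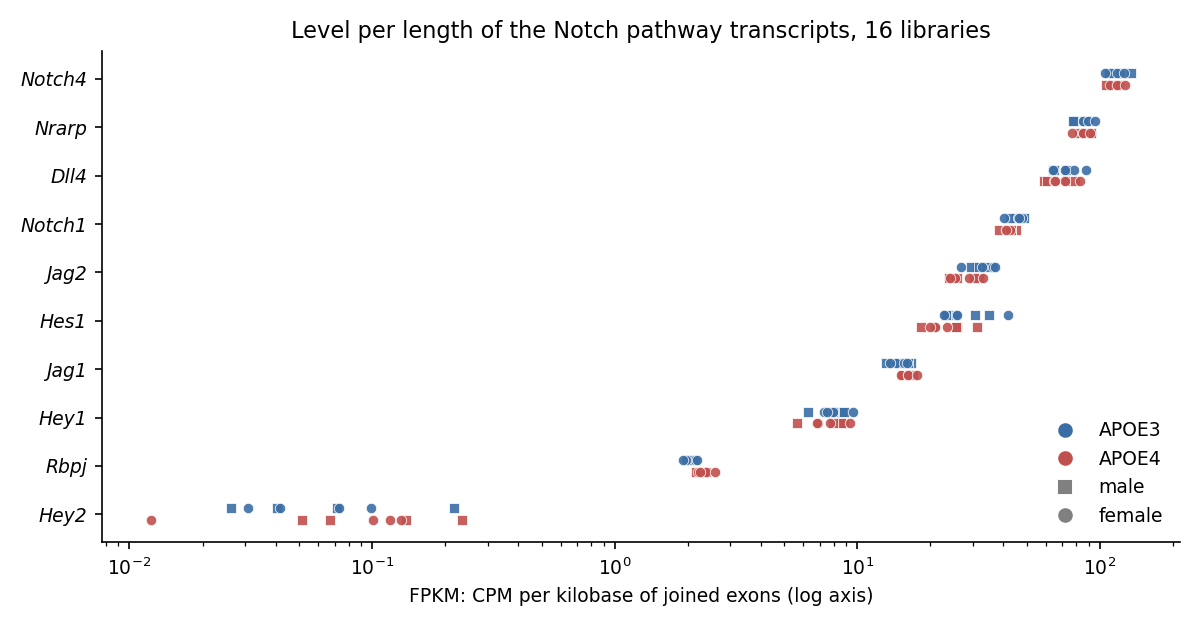
Level per length (FPKM, log axis) of the 10 transcripts, with each of the 16 libraries as a point, coloured by genotype and shaped by sex. Notch4, Nrarp and Dll4 lie at the top and Rbpj near 2.20 FPKM (1.913 to 2.579). Hey2 lies below Rbpj in each library, at 0.0122 to 0.235 FPKM, with a wide scatter from its 1 to 16 counts.

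Whether *APOE* genotype went with the level of these transcripts was tested in edgeR (quasi-likelihood F test, p-values adjusted across the 12481 genes after Benjamini and Hochberg), and an adjusted p under 0.05 was a call. Rbpj was the 1 transcript of the 9 tested that was called, and it was higher in *APOE4* cultures, while Notch1, Notch4, Dll4, Jag1, Jag2, Hey1, Hes1 and Nrarp did not pass. That is 11.1% of the 9, beside 12.8% of all genes tested (6.71% called higher and 6.09% called lower). At an unadjusted p under 0.05 there were 5 of 9 (Notch1, Jag1, Jag2, Hes1 and Rbpj), beside 29.0% of all genes. The median log2 fold change, *APOE4* against *APOE3*, was -0.05 over the 9, with 2 above and 7 below 0, and -0.00022 over all genes. With a cell cycle mean as a covariate, described beside Rbpj, the median over the 9 was 0.0754, with 8 above and 1 (Hes1) below 0.

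Rbpj ranged from 24.4 to 27.8 CPM (median 26.6) in *APOE3* and from 27.5 to 32.9 CPM (median 29.9) in *APOE4* cultures. All 8 *APOE4* cultures lay above the *APOE3* median, and the genotypes met at the edge, since the highest *APOE3* culture (27.8 CPM) was above the lowest *APOE4* culture (27.5 CPM). Genotypes that did not overlap at all were seen for 0.625% of the genes tested. The log2 fold change of Rbpj was 0.17 (SE 0.0446, 95% interval 0.07 to 0.26, adjusted p = 0.0212). It was 0.14 within males (95% interval 0.0042 to 0.28, adjusted p = 0.333) and 0.19 within females (0.05 to 0.33, adjusted p = 0.132). Rbpj was thus called in neither sex alone in edgeR. With both sexes together, it was called in each of the 16 fits that left out 1 library.

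A cell cycle list moved with genotype beside Rbpj. Like the other lists, it was chosen with earlier results of these data known. Its 30 genes were all higher in *APOE4* cultures and 29 of them were called (96.7%, beside 12.8% of all genes). Their mean log2 CPM was 5.51 ± 0.374 in *APOE3* and 6.14 ± 0.280 in *APOE4* cultures (n = 8). With that mean as a covariate the log2 fold change of Rbpj was 0.175 in edgeR (SE 0.0653, unadjusted p = 0.014, adjusted p = 0.637). The SE was 0.0446 without a covariate. In the same fit 0 of all 12481 genes were called, beside 875 at an unadjusted p under 0.05. The cell cycle mean itself differed between genotypes, so that fit cannot fully separate it from genotype. With the mean of the pericyte and smooth muscle markers as a covariate the log2 fold change of Rbpj was 0.14 in edgeR (SE 0.0502, unadjusted p = 0.0101, adjusted p = 0.115). Within genotype and sex, the Rbpj level had a Pearson's r of -0.066 with the cell cycle mean (Spearman's rho 0.071, permutation p = 0.842 and 0.832, adjusted p = 0.892 and 0.881 over the 36 relations with list means, r = -0.098 without the 2 cultures farthest from the Rbpj median).

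**Figure D2:**
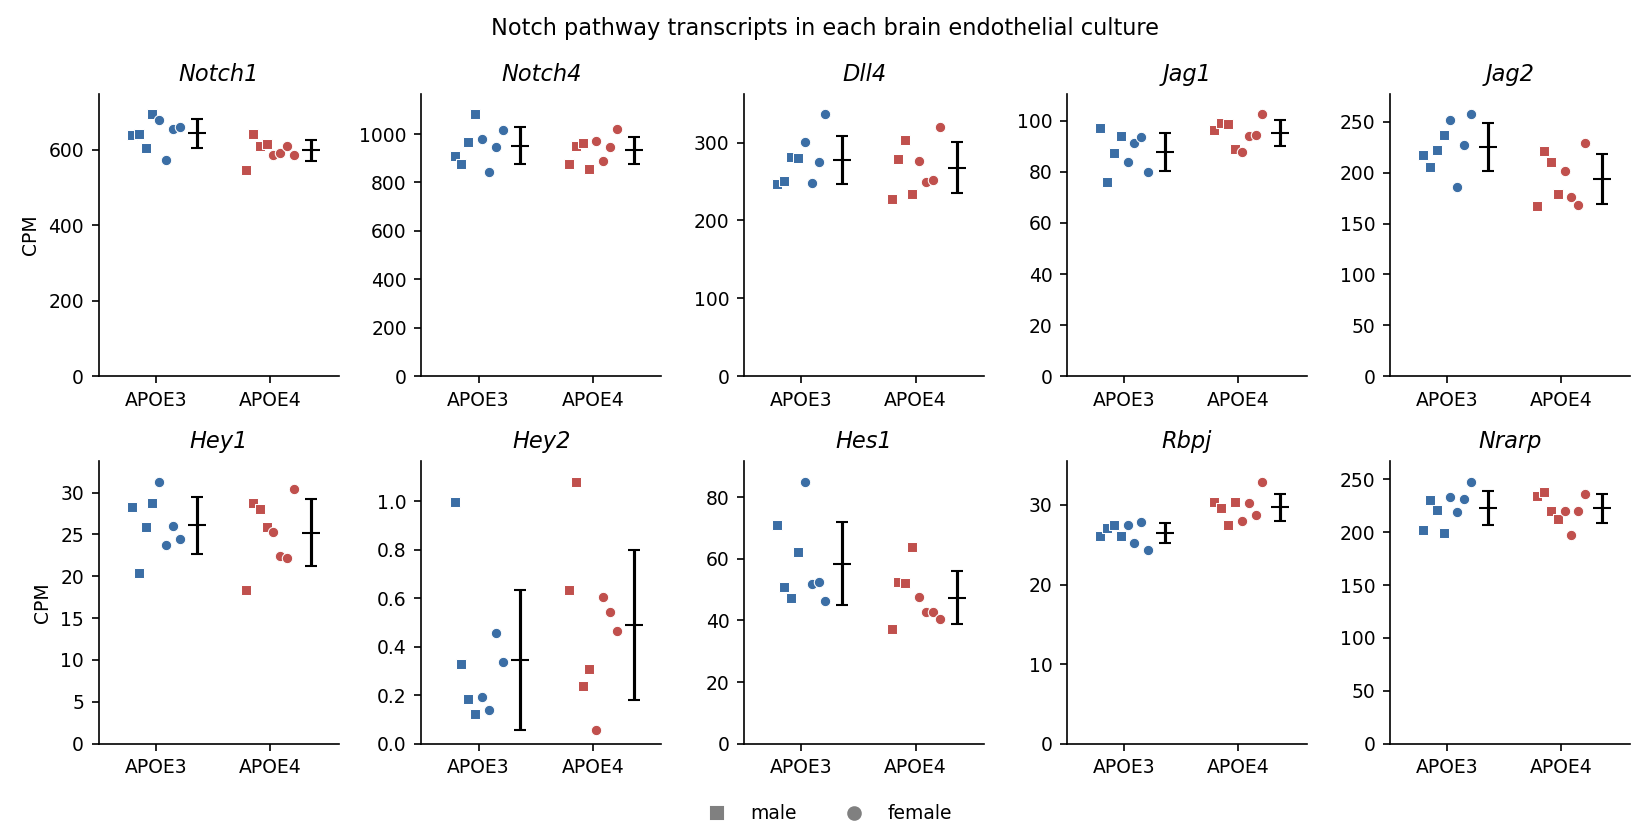
CPM of each of the 10 transcripts in each culture, by genotype, with squares for males and circles for females, and with the mean and SD of the 8 cultures as black bars. Rbpj shows the least overlap, 24.4 to 27.8 CPM in *APOE3* against 27.5 to 32.9 CPM in *APOE4* cultures, and each axis starts at 0.

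Among the receptors, Notch1, the main receptor of sprouting endothelium, ranged from 571.2 to 693 CPM (median 647) in *APOE3* and from 547 to 641.9 CPM (median 599) in *APOE4* cultures. All 8 *APOE4* cultures lay below the *APOE3* median, and the ranges overlapped. The estimate was -0.10 on the log2 scale (SE 0.0398, adjusted p = 0.0868). It passed the threshold in 1 of the 16 fits that left out a library, that without *APOE3* replicate 31 (adjusted p = 0.0227). Over those 16 fits the estimate ran from -0.127 to -0.0871 and the adjusted p from 0.0227 to 0.165. Notch4 ranged from 843 to 1081 CPM in *APOE3* and from 856 to 1021 CPM in *APOE4* cultures, nearly the same span. Its log2 fold change was -0.03 (SE 0.0478, 95% interval -0.13 to 0.07, adjusted p = 0.737).

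Among the ligands, Jag2 came closest to the threshold. It ranged from 186 to 257 CPM (median 225) in *APOE3* and from 167 to 229.7 CPM (median 190.5) in *APOE4* cultures. *APOE4* cultures were mostly lower, with 1 of 8 above the *APOE3* median. The difference was -0.22 on the log2 scale (SE 0.0732, 95% interval -0.37 to -0.06, adjusted p = 0.0558). Jag2 was called with total counts in place of TMM factors (adjusted p = 0.0493), with DESeq2's Wald test (0.0329) and with limma's voom (0.0452), and without *APOE3* replicate 31 (0.0187), *APOE4* replicate 36 (0.0339) or *APOE4* replicate 43 (0.0233). Over all alternatives its adjusted p ran from 0.0187 to 0.862, the highest with the cell cycle mean as a covariate, where the estimate was 0.06.

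Jag1, a ligand also made by smooth muscle cells, ranged from 76.2 to 97.2 CPM (median 89.2) in *APOE3* and from 88.0 to 102.5 CPM (median 95.4) in *APOE4* cultures. The *APOE4* cultures sat in the upper part of the *APOE3* range or above it, and 6 of 8 were above the *APOE3* median. The difference was 0.11 on the log2 scale (SE 0.0480, adjusted p = 0.117). Dll4, the ligand of tip and arterial cells, ranged from 247 to 336 CPM in *APOE3* and from 228 to 320.0 CPM in *APOE4* cultures. Its genotypes overlapped over most of that span, with a log2 fold change of -0.05 (SE 0.0724, 95% interval -0.20 to 0.10, adjusted p = 0.685).

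Among the targets, Hes1, a repressor induced quickly by Notch and by other signals, ranged from 46.4 to 85.0 CPM (median 52.2) in *APOE3* and from 37.2 to 63.8 CPM (median 45.2) in *APOE4* cultures. Relative to its mean, it had the widest spread of the 9 tested transcripts in *APOE3* cultures (SD 23.1% of the mean), where *APOE3* replicate 30 was the highest. Its log2 fold change was -0.30 (SE 0.122, 95% interval -0.55 to -0.04, adjusted p = 0.109), and it was called only without *APOE4* replicate 38 (adjusted p = 0.0442) among the 16 fits that left out a library. Over those 16 fits the estimate ran from -0.373 to -0.203 and the adjusted p from 0.0442 to 0.242. Hey1, a repressor of the Hairy family, ranged from 20.4 to 31.3 CPM in *APOE3* and from 18.4 to 30.4 CPM in *APOE4* cultures, which overlapped almost entirely (log2 fold change -0.05, SE 0.0940, adjusted p = 0.772).

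Nrarp had 223 ± 16.3 CPM in *APOE3* and 223 ± 13.7 CPM in *APOE4* cultures (n = 8). Its log2 fold change was -0.0036 (95% interval -0.10 to 0.09, adjusted p = 0.971). Hey2 was too low to test, with 2 to 16 counts in *APOE3* and 1 to 15 counts in *APOE4* cultures. Without a filter on low counts its log2 fold change was 0.47 (adjusted p = 0.576).

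Sex did not pass the threshold for any of the 9 transcripts. Of all genes tested, 0.0721% were called between females and males and 4.26% had an unadjusted p under 0.05, and of the 9 transcripts 0 did at either threshold. The difference of the genotype effect between the sexes was called for 0% of all genes, with 2.76% at an unadjusted p under 0.05 in edgeR and 0 of the 9 transcripts. Nrarp came nearest, with a log2 fold change of 0.09 within males and -0.09 within females (difference -0.18, SE 0.0862, 95% interval -0.36 to 0.0033, adjusted p = 1.00). Male cultures had 213 ± 15.2 CPM of Nrarp in *APOE3* and 226 ± 12.1 CPM in *APOE4*, and female cultures 233 ± 11.6 and 219 ± 15.8 CPM (SD, n = 4). Hes1 had a log2 fold change of -0.17 within males and -0.44 within females, a difference of -0.28 with a 95% interval of -0.79 to 0.24.

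**Figure D3:**
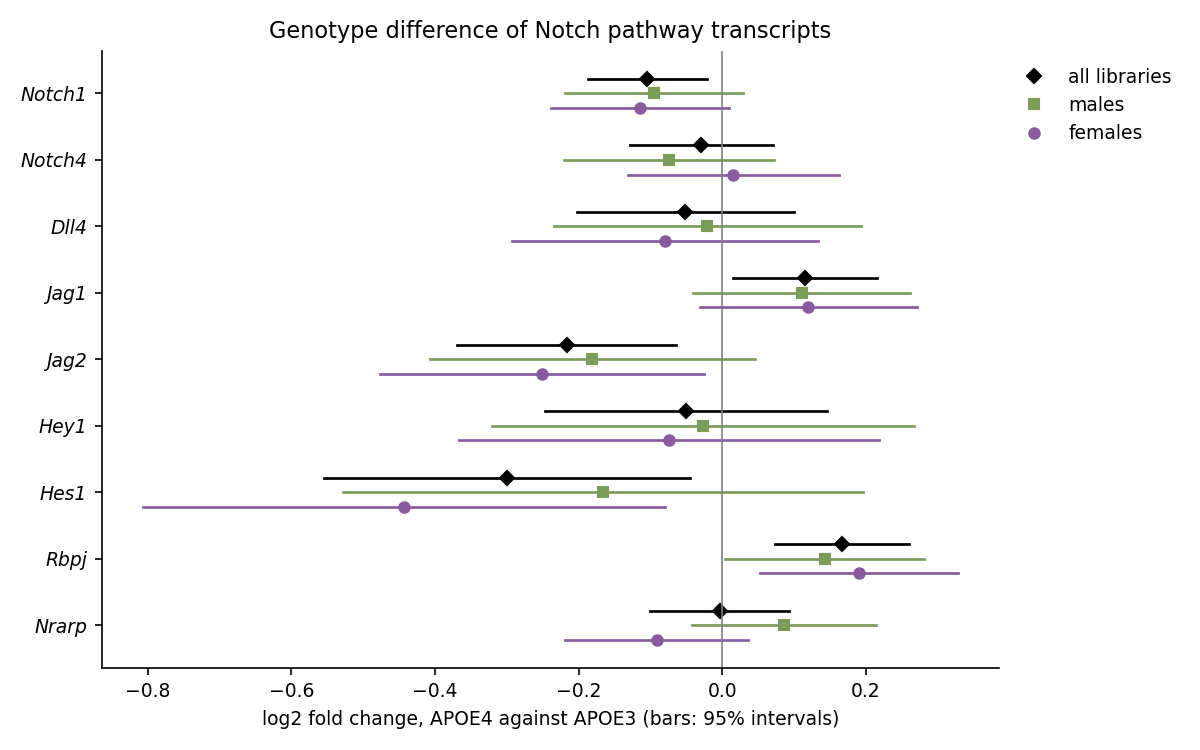
Log2 fold change, *APOE4* against *APOE3*, of the 9 tested transcripts over all libraries (diamonds), within males (squares) and within females (circles), with 95% intervals as bars. Over all libraries the intervals of Rbpj (0.07 to 0.26) and Jag1 (0.0148 to 0.215) lie above 0. Those of Notch1 (-0.187 to -0.0214), Jag2 (-0.37 to -0.06) and Hes1 (-0.55 to -0.04) lie below it. The intervals are not adjusted for the number of genes, and of these transcripts Rbpj alone was called. Nrarp is the transcript whose male and female estimates (0.09 and -0.09) fall on either side of 0 by the most.

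The other genes of the pathway were taken from a list of 71, of which 59 were tested. Of these 59, 14 were called, 4 higher and 10 lower in *APOE4* cultures, and 39 of 59 had a log2 fold change below 0. That is 23.7% called beside 12.8% of all genes, with a median log2 fold change of -0.05 beside -0.00022 of all genes. The median was 0.0105 with the cell cycle mean as a covariate. The count was 6 to 19 when 1 library was left out, the lowest without *APOE3* replicate 30, and 0 with the cell cycle mean as a covariate. The largest called changes were decreases of Maml3, a mastermind-like coactivator, and Mib2, a ligase that acts on Notch ligands.

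Of the other receptors, Notch2 had 37.8 ± 1.73 CPM in *APOE3* and 37.4 ± 3.91 CPM in *APOE4* cultures (log2 fold change -0.01, SE 0.0559, adjusted p = 0.917). Notch3, the receptor of mural cells, had 9 to 54 counts per library (log2 fold change 0.19, SE 0.326, adjusted p = 0.749). Of the other ligands 2 of 6 were tested and 1 was called (50%, beside 12.8% of all genes). Dll1 was not called, with 16.9 ± 5.29 CPM in *APOE3* and 12.3 ± 4.41 CPM in *APOE4* cultures (log2 fold change -0.45, SE 0.210, adjusted p = 0.157). Egfl7, a secreted endothelial protein that can bind Notch and was the most abundant per length of its role at 358.7 FPKM, fell from 1357 ± 66.0 CPM in *APOE3* to 1212 ± 51.6 CPM in *APOE4* cultures (adjusted p = 0.00835, log2 fold change -0.16, SE 0.0351), all 8 of which lay below the *APOE3* median.

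Of the enzymes that cut the receptor, 2 of 9 tested were called (22.2%, beside 12.8% of all genes). Adam17, a protease of the cell surface, rose from 93.4 ± 5.96 to 104.1 ± 4.09 CPM (log2 fold change 0.16, adjusted p = 0.0143). Adam10, the sheddase most used by Notch and the most abundant per length here at 48.5 FPKM, had a log2 fold change of 0.07 (adjusted p = 0.178). Of 5 genes for sugars on Notch, 2 were called (40%): Rfng fell by 0.25 and Mfng by 0.17 on the log2 scale (adjusted p = 0.0101 and 0.0409), both fringe enzymes that change which ligands a receptor answers. Mfng was the most abundant of the 5 at 47.2 FPKM, and its call held in 6 of 16 fits that left out a library.

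Of 8 coactivators 1 was called (12.5%, beside 12.8% of all genes). A log2 fold change below 0 was found for 6 of the 8, as for 6249 of all 12481 genes. Maml3 fell from 30.8 ± 5.35 to 23.6 ± 4.43 CPM (adjusted p = 0.0303, log2 fold change -0.39, SE 0.113), and the call held in 10 of 16 fits that left out a library. Ep300, an acetyltransferase and the most abundant coactivator per length at 17.0 FPKM, had a log2 fold change of -0.13 (adjusted p = 0.0578). Of 15 corepressors 3 were called (20%). Hdac1, a histone deacetylase, rose by 0.14 on the log2 scale (adjusted p = 0.0247), while Spen and Sin3a, scaffolds that recruit deacetylases, fell by 0.14 and 0.12 (adjusted p = 0.0367 and 0.0330), with calls in 7 and 8 of 16 such fits. Ctbp1, the most abundant corepressor per length at 71.2 FPKM, had a log2 fold change of -0.06 (adjusted p = 0.391).

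Of 14 tested genes for endocytosis and turnover, 5 were called in mixed directions (35.7%, beside 12.8% of all genes). Mib2 fell from 46.5 ± 3.59 to 37.2 ± 3.99 CPM (adjusted p = 0.00636, log2 fold change -0.32, SE 0.0626), and Dtx3, a Deltex family gene, fell by 0.20 on the log2 scale (adjusted p = 0.0107). Dtx3l, of the same family, rose by 0.18 (adjusted p = 0.00817) and was the 1 gene of the 14 calls whose genotypes did not overlap. Of all genes tested, called or not, 0.625% did not overlap, and the share among called genes alone was not computed. Nedd4, a ubiquitin ligase and the most abundant of its role at 147.9 FPKM, rose by 0.13 (adjusted p = 0.0270). The calls left by the naming rule were Furin (log2 fold change -0.12) and Numb (-0.11). When 1 library was left out, Nedd4 and Numb were called in 11 of 16 fits and Furin in 6, and none of the 3 was called without the filter on low counts (adjusted p = 0.0593, 0.0556 and 0.0591). Among 4 other targets tested 0 were called: Efnb2, the arterial ephrin, had 18.0 FPKM (log2 fold change -0.06, adjusted p = 0.710), and Heyl, with 7 to 51 counts, stood at 0.62 on the log2 scale (SE 0.338, adjusted p = 0.237). Its estimate was -0.41 within males (SE 0.403) and 1.504 within females (SE 0.394), and the difference between them, 1.91 (SE 0.564), did not pass adjustment over all genes in edgeR (unadjusted p = 0.00327, adjusted p = 1.00).

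**Figure D4:**
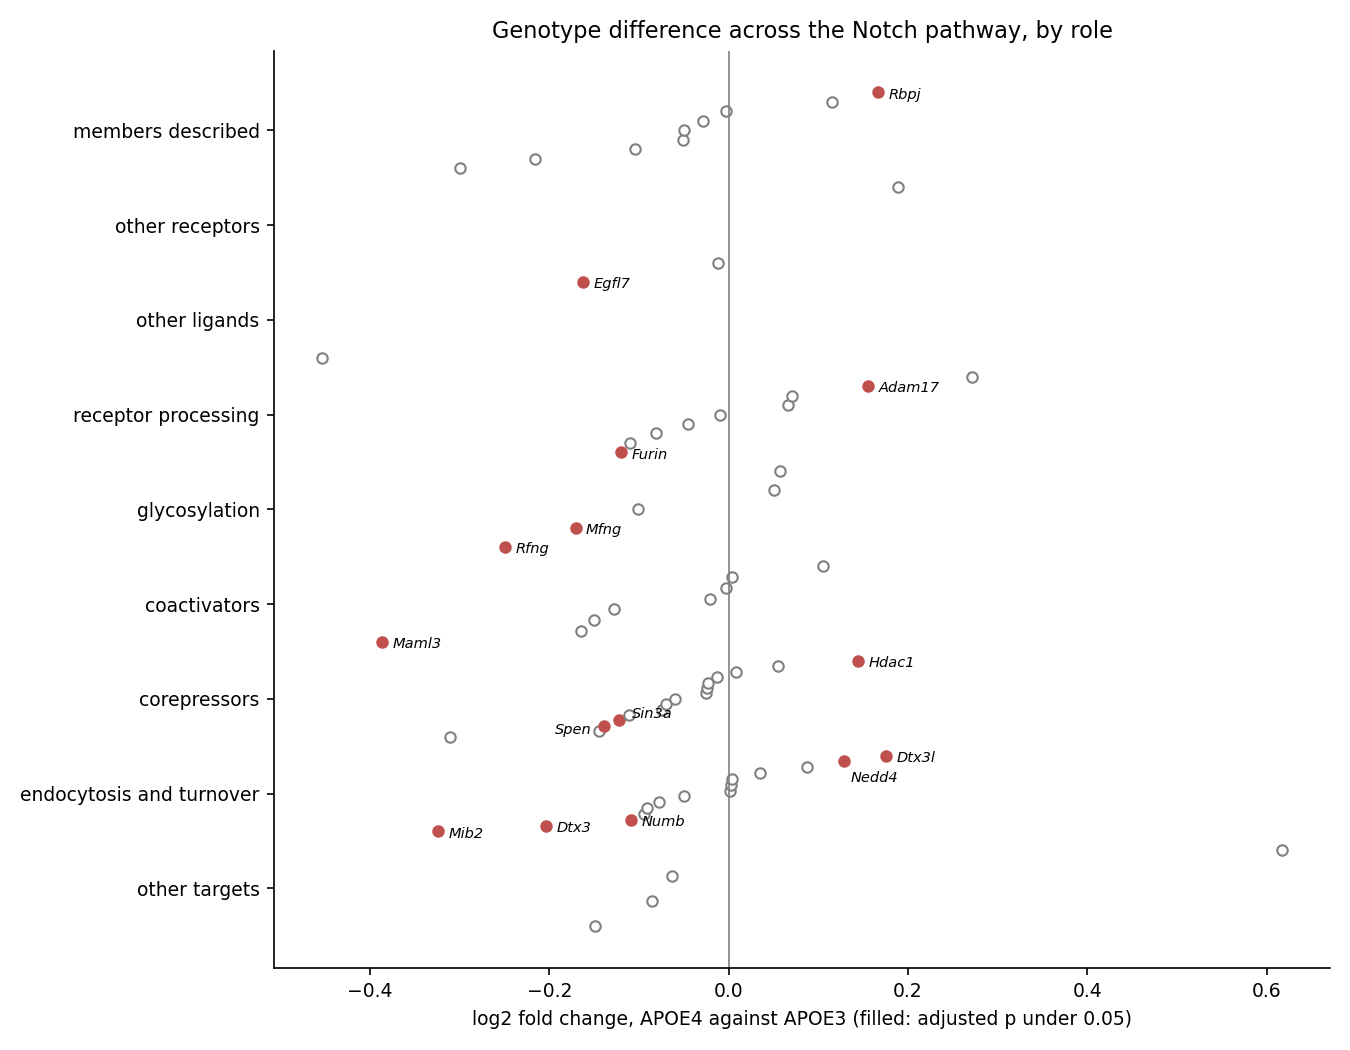
Log2 fold change, *APOE4* against *APOE3*, of the tested pathway genes in rows by role, with filled points for an adjusted p under 0.05 and the names of those genes beside them. Filled points lie on both sides of 0, with 10 of the 14 outside the top row below it, from Maml3 at -0.39 to Dtx3l at 0.18.

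Of 12 arterial markers tested 2 were called (16.7%, beside 12.8% of all genes), both higher in *APOE4* cultures: Gja5, a gap junction protein, from 15.8 ± 3.45 to 23.9 ± 3.72 CPM (log2 fold change 0.60, adjusted p = 0.00715), and Alpl, from 2.24 ± 0.773 to 4.50 ± 1.91 CPM (log2 fold change 1.01, adjusted p = 0.0232). Alpl was not called with limma's voom (adjusted p = 0.0569). Of the 12 estimates 8 were above 0 and 4 below, with a median of 0.058. The 13 arterial markers listed had a median summed level of 972.2 CPM in *APOE3* and 918 CPM in *APOE4* cultures. Of 8 venous markers 4 were called (50%): Lcn2 (0.55), Il1r1 (0.33) and Tmem252 (0.21) were higher, and Ephb4, the venous ephrin receptor, was lower (-0.20). Of 10 tip cell markers 0 were called (0%), with 2 at an unadjusted p under 0.05 in edgeR. Of 21 brain endothelial markers 3 were called (14.3%): Slco1c1 (-0.31) and Ramp2 (-0.20) were lower, and Emcn (0.14) was higher. The call of Slco1c1 held in 6 of 16 fits that left out a library.

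Some of the transcripts varied together between cultures of the same genotype and sex. Log2 CPM values were taken as deviations from the 4 genotype-by-sex means, and 36 pairs were compared over the 16 libraries with 100000 permutations within those groups, two-sided. After adjustment over the 36 pairs 4 passed, which joined Notch4, Dll4 and Jag2 with each other and Hey1 with Jag2 alone. Dll4 and Jag2 had a Pearson's r of 0.917 and a Spearman's rho of 0.938 (permutation p = 0.0002 and 0.00018, adjusted p = 0.0024 and 0.00276), and r was 0.915 without the 2 cultures farthest from the Dll4 median. It was 0.895 within *APOE3*, 0.933 within *APOE4*, 0.882 within males and 0.950 within females.

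Notch4 and Dll4 had an r of 0.848 and a rho of 0.862 (permutation p = 0.00018 and 0.00023, adjusted p = 0.0024 and 0.00276, r = 0.886 without the 2 farthest). Notch4 and Jag2 had an r of 0.832 and a rho of 0.856 (permutation p = 0.00015 and 8e-05, adjusted p = 0.0024 and 0.00276, r = 0.833 without the 2 farthest). Jag2 and Hey1 had an r of 0.761 and a rho of 0.782 (permutation p = 0.00073 and 0.00127, adjusted p = 0.00657 and 0.0114, r = 0.745 without the 2 farthest). Their r was 0.554 within *APOE3* and 0.896 within *APOE4* cultures. Hey1 did not pass with Dll4 (r = 0.625) or with Notch4 (r = 0.599), each with an adjusted permutation p of 0.119. For scale, the r values of the 4 pairs that passed were set beside the 9951 genes outside the lists with a mean of at least 5 CPM. An r with Dll4 at least as high as that of Jag2 was found for 0.121% of them, and an r with Jag2 as high as that of Dll4 for 0.312%. For Notch4 and Dll4 the shares were 0.362% (r with Notch4) and 1.01% (r with Dll4), for Notch4 and Jag2 0.553% (with Notch4) and 2.04% (with Jag2), and for Jag2 and Hey1 4.26% (with Jag2) and 1.28% (with Hey1). Notch1, Jag1, Hes1, Rbpj and Nrarp passed with no other transcript.

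The same transcripts moved with list means of other genes, over 36 relations of the 9 transcripts with 4 lists. With the mean of the arterial markers, Hey1 had an r of 0.828 (rho 0.803), Jag2 0.842 (rho 0.850), Dll4 0.812 (rho 0.862) and Notch4 0.753 (rho 0.797), with permutation p from 0.00031 to 0.00286 and adjusted p from 0.00516 to 0.0206 for r, adjusted p from 0.00756 to 0.0125 for rho, and r from 0.714 to 0.817 without the 2 farthest cultures. The arterial list shares Efnb2 and Unc5b with the Notch targets above. With the cell cycle mean, Jag2 had an r of -0.853 (rho -0.862, permutation p = 0.00043 and 0.00063, adjusted p = 0.00516 and 0.00756, r = -0.789 without the 2 farthest) and Dll4 -0.722 (rho -0.747, permutation p = 0.0107 and 0.00636, adjusted p = 0.0480 and 0.0382, r = -0.734). Notch1 had an r of -0.738 with it (rho -0.585, permutation p = 0.00702 and 0.0322, adjusted p = 0.0361 and 0.0965), which rested on 2 cultures, since r was -0.434 without them. Jag2 also had an r of 0.730 with the mean of the brain endothelial markers (rho 0.747, permutation p = 0.00611 and 0.0140, adjusted p = 0.0361 and 0.0578). The part of the cell cycle genes in these relations was not tested.

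**Figure D5:**
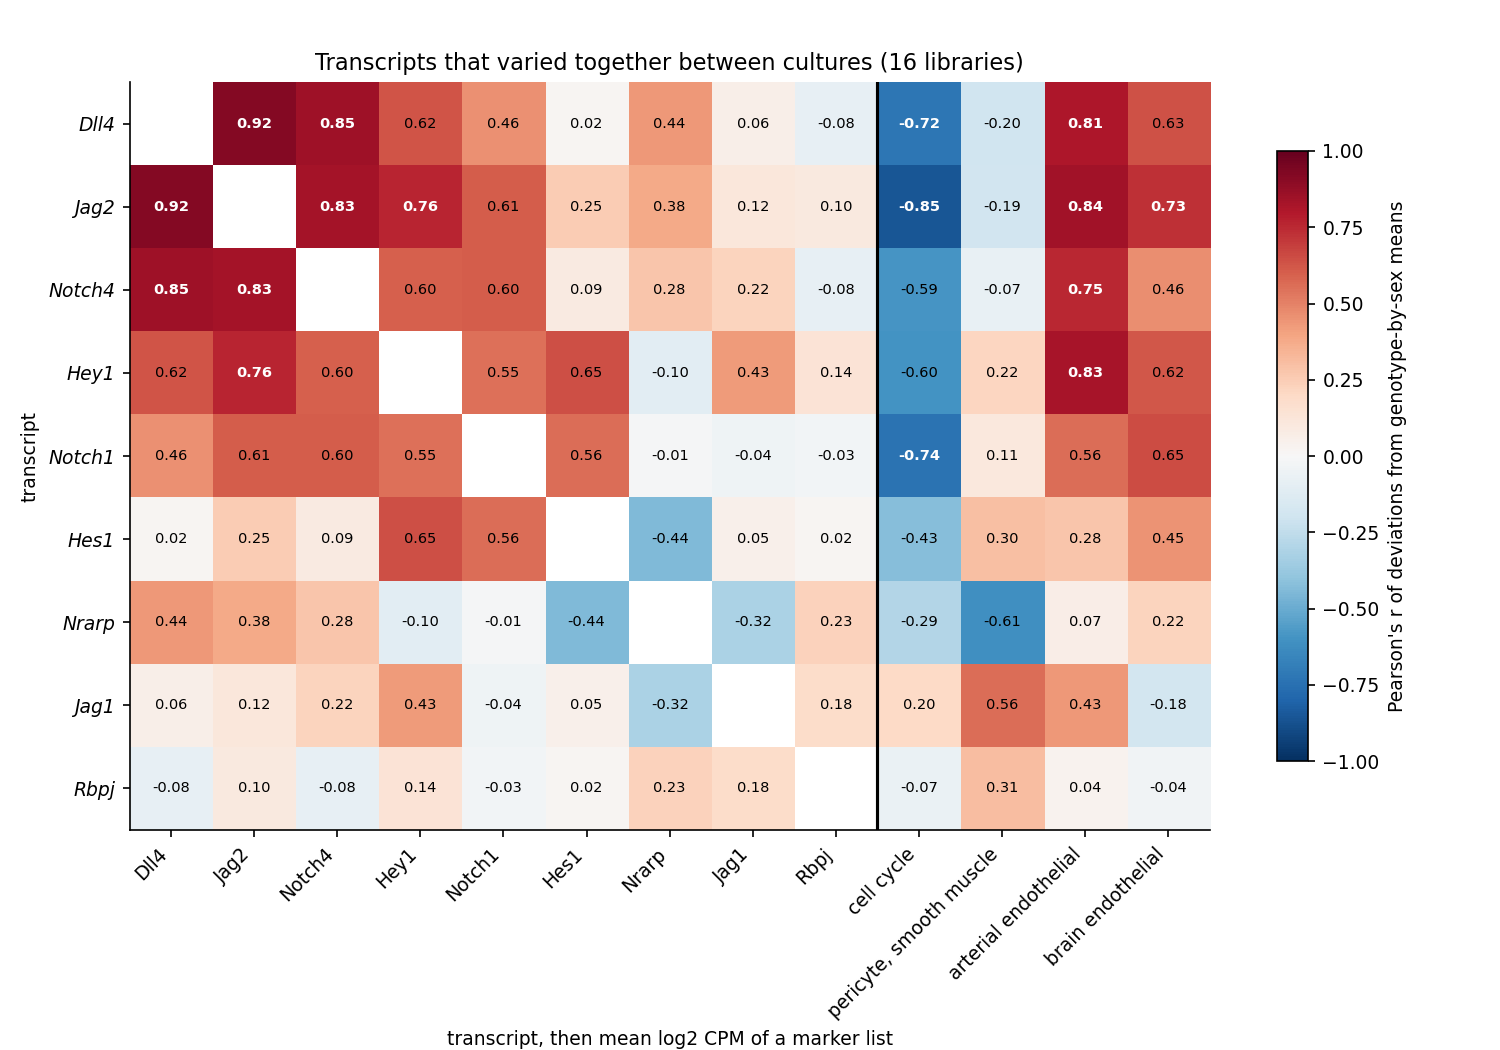
Pearson's r between the 9 tested transcripts and, right of the line, with the mean log2 CPM of 4 gene lists, computed on deviations from the genotype-by-sex means of 16 libraries. Bold values passed an adjusted p of 0.05. Dll4, Jag2 and Notch4 form a block at the upper left (r up to 0.917), and among transcripts Hey1 is bold with Jag2 alone.

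The gene most like each transcript by the same r, out of the 9951 searched over 16 libraries, was Sgms1 for Jag2 (0.976), Dgkd for Dll4 (0.970), C77080 for Notch4 (0.935), Prkacb for Hey1 (0.935), Tpst1 for Nrarp (0.923), Sept5 for Jag1 (0.911), Adarb1 for Notch1 (0.910), Id1 for Hes1 (0.860) and LTO1 for Rbpj (0.801). These are the highest of many values and carry no test. Rbpj had the lowest of the 9 best matches.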

How the data were processed

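RNA sequencing of poly-A libraries (100 ng of total RNA, 17 PCR cycles) from 16 cultures was analysed, with all columns of the count table mapped by label. The authors deposited whole-number read counts per gene, without normalization. The submitters' processing notes name STAR, featureCounts, mm10 and hg38. Versions, annotation release and strand setting are not given in the sources used here. Reads carry no molecular identifiers, so depth (12717847 to 18624417 counts) covers counting error only. The 10 genes and the gene lists were chosen with earlier results of these data known.

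Counts were analysed with edgeR 4.0.16 in R 4.3.3: filterByExpr by genotype, TMM, genotype as the single term, quasi-likelihood F test, Benjamini-Hochberg adjustment over 12481 genes, threshold 0.05. Standard errors were the log2 fold change divided by the square root of F. A fit of 4 genotype-by-sex groups gave the sex terms. Log2 CPM used a prior count of 2. Alternatives used DESeq2 1.42.0 and limma 3.58.1, and figures matplotlib 3.10.9 in Python 3.11.15. The fits were tested on simulated counts. Gene models were GENCODE vM21 (GRCm38), which held 38872 of 39056 mouse rows, and promoters were RefSeq's.

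Named genes were the 10, the 12 largest calls of the wider list, the most abundant per length of each role, Notch2, Notch3 and Heyl, up to 4 calls per marker list, and the best match of each transcript. Furin, Numb, Dll1 and the promoters printed were picked after their values were seen.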

Additional observations from a re-analysis of the deposited data

Results flagged for a closer look

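Of 26 groups of 8 cultures examined for a culture far from the rest, 2 held one, and chance alone was taken to give about 1 in 20. That rate was not tested for transcripts of few counts. Hey2 had 0.9985 CPM (16 counts) in *APOE3* replicate 25, against 0.121 to 0.455 CPM in the other *APOE3* cultures, and the gap was 0.619 of the range. Heyl had 2.354 CPM (38 counts) in *APOE3* replicate 27, with a gap of 0.537 of the range. Both are low-count transcripts, and the ranges and fold changes given for them include these cultures.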

How the results depend on the processing

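Rbpj was called in 8 of 10 alternatives and in 16 of 16 fits that left out a library. The number of the 9 transcripts called went from 1 to 2 with total counts, with DESeq2's Wald test and with limma's voom (Rbpj and Jag2 each time), to 0 with the cell cycle or the pericyte and smooth muscle mean as a covariate, and ran from 1 to 3 when 1 library was left out. Calls among all genes went from 1597 to 0 with the cell cycle mean and 169 with the pericyte and smooth muscle mean, and ran from 846 (without *APOE4* replicate 41) to 2127 when 1 library was left out, with 853 without *APOE3* replicate 30 and 952 without *APOE3* replicate 33. Calls in the wider list went from 14 to 0 and 1 under the same 2 covariates and ran from 6 to 19 when 1 library was left out. They were 6 without *APOE3* replicate 30, 7 without *APOE3* replicate 33 or *APOE4* replicate 41, 8 without *APOE4* replicate 35 or 40, and 9 without *APOE3* replicate 26 or 28. With the cell cycle mean as a covariate the log2 fold changes of Mfng (0.000175), Maml3 (0.0361), Slco1c1 (0.0944) and Ramp2 (0.00991) turned positive, as did the median over the 9 transcripts (from -0.05 to 0.0754), that over the wider list (from -0.05 to 0.0105) and the estimates of Notch1, Notch4, Dll4, Jag2, Hey1 and Nrarp, none of which was called. The cause was not tested. Over 77 single genes, 1846 of 2000 values under an alternative kept their side of the threshold, 37 passed it newly, 113 lost it and 4 reversed. Calls for sex and for its difference stayed at 0, and correlated pairs ran from 3 to 5 (4 with Spearman's rho or DESeq2's size factors). No paired analysis was possible because the genotypes share no replicate numbers. Hey2 and other transcripts of few counts are limited by depth.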
